A study of Homo sapiens with 6 samples.

Results

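The transcripts described here moved in opposite directions in Caco-2 cells transformed with Ha-RAS and in Caco-2 cells transformed with Ki-RAS, and they were detected on every array of the study. Of 24350 probes named by a GI sequence number, 7610 were detected on all 6 arrays (detection score of at least 0.99), and 416 of these (5.47%) were members. The members were selected on their levels on these arrays: the mean level differed from the control mean by at least 1.5-fold, upward in one RAS line and downward in the other. In 169 probes the level was above control with Ha-RAS and below it with Ki-RAS, here called the Ha-high set. In 247 probes it was below control with Ha-RAS and above it with Ki-RAS, here called the Ki-high set. Since the members were chosen by these values, the differences from control and the differences between the RAS lines are given as a description, with no test. The files do not pair probe IDs with gene names, and 0 IDs matched the RefSeq gene table for GRCh38.p14. The probes are therefore given by ID, no gene list could be counted, and the labelled cell type could not be checked against its markers.

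RAS proteins are small GTPases that pass signals from growth factor receptors at the cell membrane to the RAF-MEK-ERK kinase cascade and to PI3-kinase. The Ha-RAS and Ki-RAS proteins are nearly alike in the domain that binds GTP and effectors, and they differ in the C-terminal tail, whose lipid modification and charge direct the protein to the membrane. Caco-2 is an established human colon adenocarcinoma line that can form a polarised epithelium resembling that of the small intestine. Constitutive RAS signalling in intestinal epithelial cells is known for loss of growth control and, in some settings, loss of epithelial organisation.

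The study held 3 groups of 2 arrays each: Caco-2 cells transformed with Ha-RAS (sample titles CacoH2A and CacoH2B), Caco-2 cells transformed with Ki-RAS (CacoK15A and CacoK15B), and control Caco-2 cells (Caco2A and Caco2B). All cells were untreated and were grown to 70% confluency in serum-containing medium. Both Ki-RAS samples and the Ha-RAS sample of replicate B are labelled as rapidly growing, and the latter also as having an EMT (epithelial-to-mesenchymal transition) phenotype. Each isoform is represented by 1 named line, so isoform and line cannot be told apart. The design text names biological replicates but not how they were separated.

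Illumina bead arrays report for each probe a mean fluorescence signal over its beads. The arrays detected 9245 to 10192 probes each. The median signal of undetected probes, taken as background, was 63.5 to 71.1 intensity units, and the median signal of the 7610 probes was 255.1 to 333.1. A level is written here as the log2 of the signal minus that background, at least 16 units, minus the array's median over the 7610 probes, so that 0 is the array's median probe and 1 unit is a doubling. The median change over the 7610 probes was 0.04 on the log2 scale in each RAS line against control. The number of arrays limits the precision. Fewer cells carrying a transcript and less of it per cell cannot be told apart in such bulk RNA.

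In the 169 probes of the Ha-high set, the Ha-RAS level lay 0.59 to 3.24 above control on the log2 scale, with a median of 0.82, and the Ki-RAS level lay 0.59 to 3.42 below it, with a median difference of -0.85. Among all 7610 probes, 21.9% were at least 1.5-fold higher in Ha-RAS than in control cells and 21.8% were lower by at least 1.5-fold with Ki-RAS. The differences were mostly modest, since 47 of the 169 probes were at least 2-fold higher in Ha-RAS, 59 were lower by at least 2-fold with Ki-RAS, and 18 were both. The distance between the RAS lines had a median of 1.76 on the log2 scale and reached 5.33. It was at least 4-fold for 62 probes and at least 16-fold for 5.

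In the 247 probes of the Ki-high set the differences were larger. The Ha-RAS minus control difference ran from -4.96 to -0.59 with a median of -1.06, and the Ki-RAS minus control difference from 0.59 to 4.76 with a median of 1.05. The corresponding shares of all 7610 probes were 21.6% at least 1.5-fold lower in Ha-RAS and 24.3% at least 1.5-fold higher in Ki-RAS. At least 2-fold differences numbered 129 for Ha-RAS and 131 for Ki-RAS, and 80 probes were past 2-fold in both. The Ha-RAS minus Ki-RAS difference had a median of -2.23 and a lowest value of -7.40. It was at least 4-fold in size for 150 probes and at least 16-fold for 26.

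**Figure D1:**
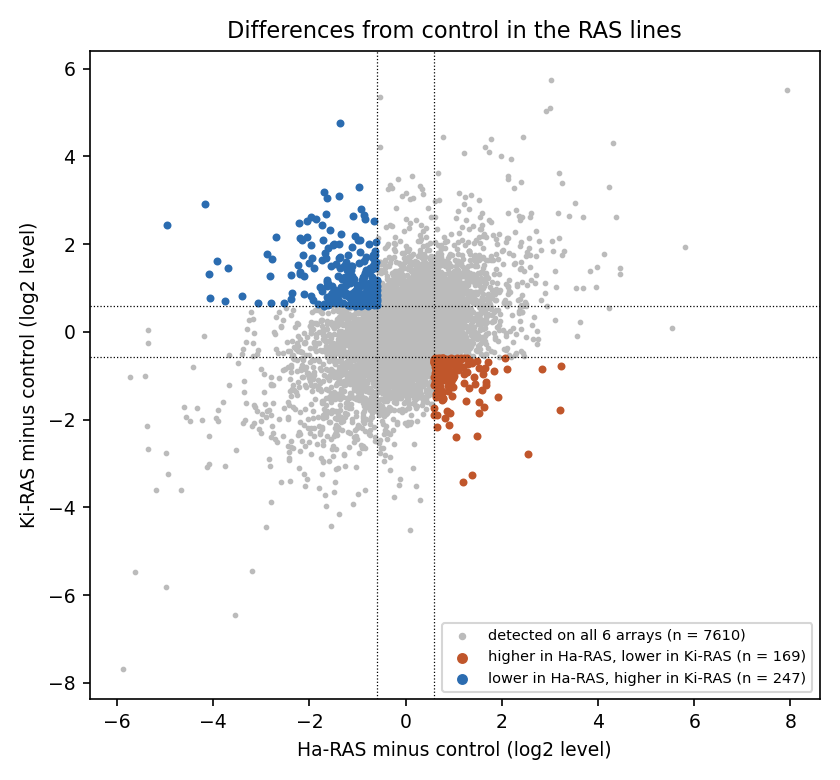
Difference from control in Ha-RAS cells (x axis, log2) against that in Ki-RAS cells (y axis, log2) for the 7610 probes detected on all 6 arrays, each the difference of means over 2 arrays; both axes share the control arrays. Dotted lines mark 1.5-fold in each direction, and the 247 probes at the upper left reach farther from the lines than the 169 at the lower right.

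In both sets the control level lay between the RAS lines by construction. The rule asks for the same smallest difference on both sides, which also holds the share of each side near the middle where the distance is short. For the 169 probes the step from control to Ha-RAS made up 23.0% to 80.7% of the distance between the RAS lines, with a median of 49.6%. For the 247 probes the share was 20.8% to 84.4%, with a median of 49.8%. The change was the larger one in Ha-RAS cells for 80 of the 169 probes and for 122 of the 247. These shares come from the values that chose the members and are given as a description only.

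**Figure D2:**
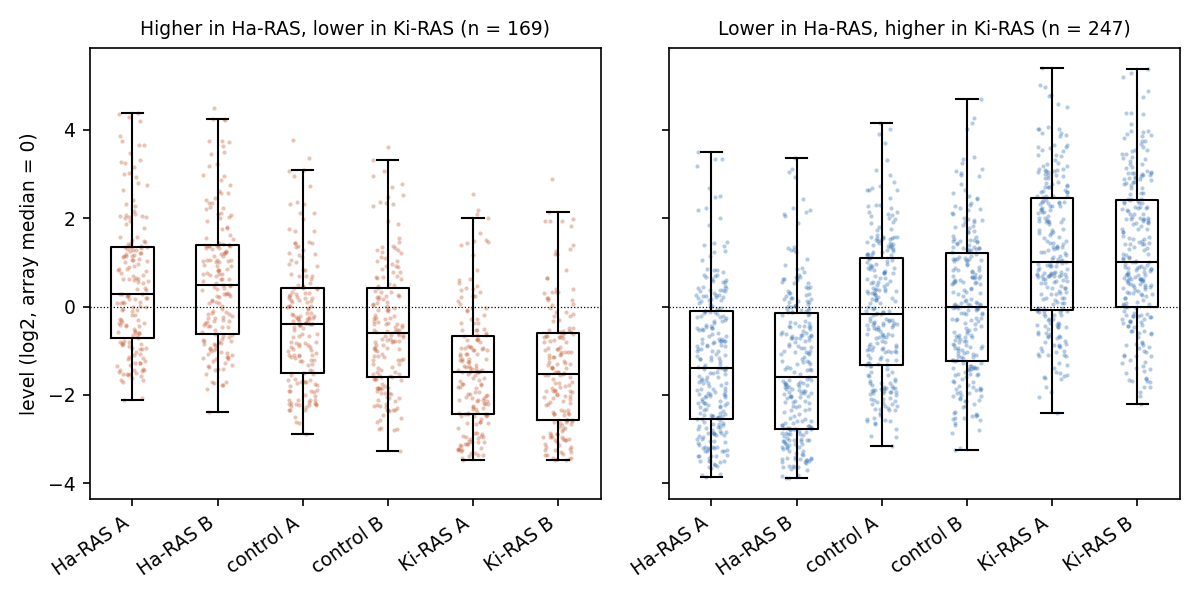
Level on each array (y axis, log2, array median of the 7610 probes set to 0) for the 169 probes (left) and the 247 probes (right), a point per probe; boxes give the median and the quartiles, and whiskers reach the last point within 1.5 times the box height. Medians step from 0.29 and 0.49 on the Ha-RAS arrays to -1.48 and -1.53 on the Ki-RAS arrays at the left, and from -1.39 and -1.59 to 1.01 and 1.02 at the right.

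Probe GI_22209007-S led the Ha-high set by the smaller of its 2 differences from control. Its deposited signal was 2678.2 and 2680.8 intensity units on the Ha-RAS arrays, 450.2 and 445.8 on the control arrays, and 115.5 and 119.7 on the Ki-RAS arrays. The 3 groups did not overlap, with control in the middle. Its level was 3.39 ± 0.10 (SD, n = 2) in Ha-RAS, 0.84 ± 0.25 in control and -1.94 ± 0.05 in Ki-RAS cells, which is 5.85-fold above control in Ha-RAS and 6.87-fold below it in Ki-RAS. Ranked within each array and averaged over the arrays of a group, it stood at percentile 94.7 of the 7610 probes in Ha-RAS, 66.2 in control and 14.1 in Ki-RAS cells. Without background subtraction the Ki-RAS fold was 3.51.

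GI_24430164-A, a probe placed by the manufacturer's suffix on all isoforms of its transcript, came next. Its signal was 2085.5 and 1792.4 on the Ha-RAS arrays, 207.8 and 272.4 on the control arrays, and 115 and 110.5 on the Ki-RAS arrays, so that the groups again did not overlap. Its level was 2.90 ± 0.06 (SD, n = 2) in Ha-RAS, -0.31 ± 0.15 in control and -2.10 ± 0.15 in Ki-RAS cells, which is 9.26-fold above control in Ha-RAS and 3.45-fold below it in Ki-RAS cells, and the second fold was 1.94 without background subtraction. The unequal steps put most of its 32-fold distance between the RAS lines on the Ha-RAS side.

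GI_7019342-S led the Ki-high set. Its signal was 120.3 and 102.4 on the Ha-RAS arrays, 631.7 and 744.9 on the control arrays, and 4500.8 and 3898 on the Ki-RAS arrays. The level was -2.63 ± 0.30 (SD, n = 2) in Ha-RAS, 1.53 ± 0.05 in control and 4.45 ± 0.11 in Ki-RAS cells. It was 17.9-fold below control in Ha-RAS, or 7.08-fold without background subtraction, and 7.55-fold above it in Ki-RAS. Its percentile among the 7610 probes was 6.3 in Ha-RAS, 78.2 in control and 98.0 in Ki-RAS cells.

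GI_33285007-S had the largest distance between the RAS lines of all members, at -7.40 for Ha-RAS minus Ki-RAS on the log2 scale. Its signal was 93.1 and 85.4 on the Ha-RAS arrays, close to the background of 71.1 and 69.3 there, against 496.8 and 649.4 on the control arrays and 2300 and 2667.1 on the Ki-RAS arrays. Its level was -3.73 ± 0.22 (SD, n = 2) in Ha-RAS, 1.23 ± 0.07 in control and 3.68 ± 0.20 in Ki-RAS cells. It was 31.1-fold below control in Ha-RAS, which became 7.30-fold without background subtraction, and 5.45-fold above control in Ki-RAS. The size of the Ha-RAS step thus depends on how background is treated. The order of the 3 groups was the same with and without subtraction, which is no check, since signals this far apart cannot change order by it.

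**Figure D3:**
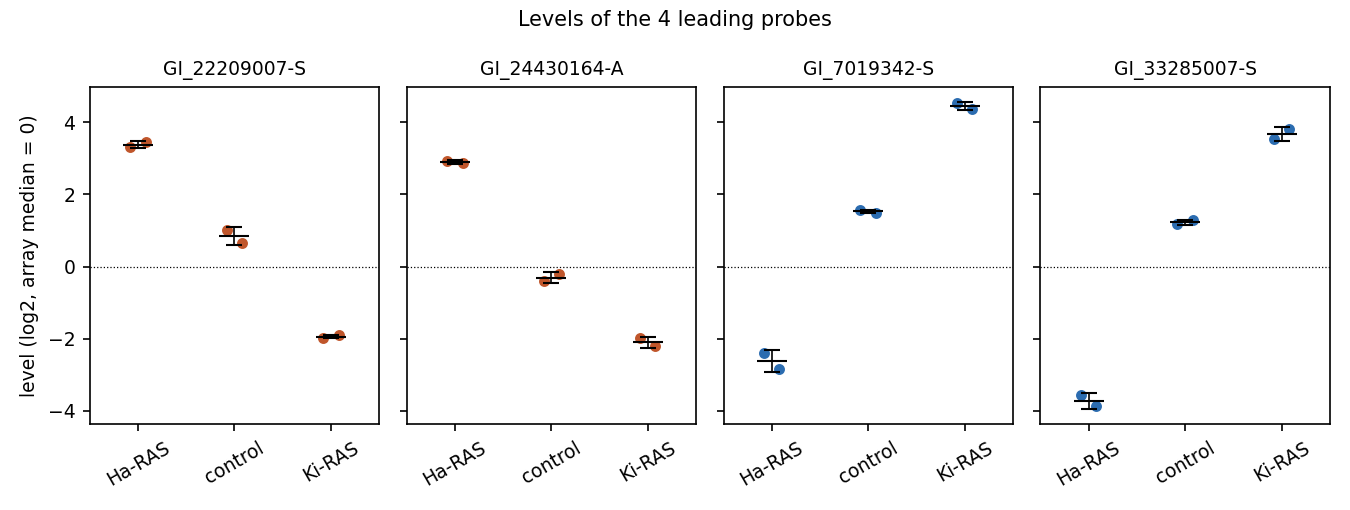
Level (y axis, log2, array median of the 7610 probes set to 0) of the 2 probes in each set whose smaller difference from control was largest, with a point per array and bars for mean ± SD (n = 2). In each panel the control arrays lie between the Ha-RAS and the Ki-RAS arrays.

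Past the threshold the 2 directions differed in number and in size. At the 1.5-fold threshold the Ha-high and Ki-high counts were 169 and 247, at 2-fold in each line they were 18 and 80, and at a log2 difference of 1.5 they were 5 and 30. At 4-fold in each line 1 probe of the Ha-high set and 8 of the Ki-high set were left. The smaller of the 2 differences had a median of 0.70 in the Ha-high and 0.82 in the Ki-high set, and its 15th highest value was 1.18 and 1.72. Without background subtraction the counts at 1.5-fold were 50 and 123, and at 2-fold they were 8 and 35. The Ki-high set was the larger one under every other processing and with any 1 array left out. That order did not hold at every threshold. Probes with opposite signs at any size numbered 1463 in the direction of the Ha-high set and 1448 in that of the Ki-high set. At a log2 difference of 2.5 in each line, 1 probe was left in each direction. No test of this difference in counts was made, since probes are not replicates.

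The threshold cut through a dense part of the data. In the Ha-high set, the members nearest to it had Ha-RAS and Ki-RAS differences of 0.59 and -1.04, and of 0.59 and -1.20. The nearest probes outside had 0.58 and -0.73, and 0.80 and -0.58. In the Ki-high set the nearest inside had -0.59 and 0.74, and -1.05 and 0.59, and the nearest outside -0.58 and 2.13, and -1.53 and 0.58. Within 0.1 above the threshold (log2 scale) lay 74 of the 169 and 75 of the 247 members, and within 0.1 below it lay 98 and 83 further probes.

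**Figure D4:**
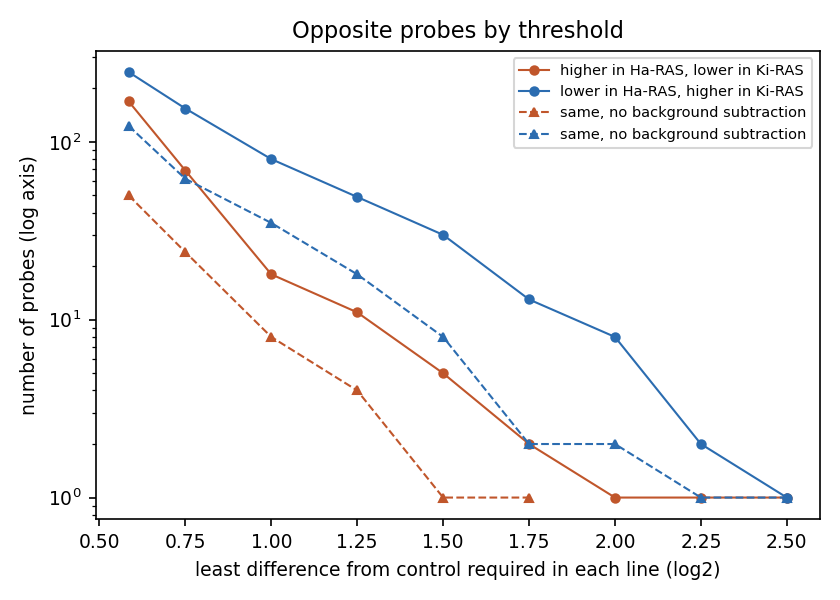
Number of probes (y axis, log scale) that differ from control in opposite directions by at least the log2 difference on the x axis in each line, with background subtracted (circles) and without subtraction (triangles). The count in the direction of the Ki-high set falls from 247 to 80 at a difference of 1, and the other from 169 to 18; counts of 0 are not drawn.

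The sets differed in how bright they were in control cells. Of the 169 probes, 52 (30.8%) were among the dimmest 25% of the 7610 probes in control cells and 19 (11.2%) among the brightest 25%. Of the 247 probes, 66 (26.7%) and 51 (20.6%) were. In the line where they were low, many members stood near the dim end. In Ki-RAS cells 56 of the 169 probes lay in the dimmest 10%, and in Ha-RAS cells 87 of the 247. In the line where they were high, 18 of the 169 (Ha-RAS) and 51 of the 247 (Ki-RAS) lay in the brightest 10%. The median percentile of the 169 probes was 57.9 in Ha-RAS, 39.8 in control and 20.7 in Ki-RAS cells. For the 247 probes it was 20.9, 47.7 and 68.9. From one RAS line to the other, 76 of the 169 and 125 of the 247 crossed the array median.

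The signal in the low line was under 2 times the background for 86 of the 169 and for 103 of the 247 members, where a fold rests on a small remainder after subtraction. Only 1 member value, in the Ki-high set, was at the minimum of 16 units. Beads per probe had a median of 42 in the Ha-high set, 43 in the Ki-high set and 42 over the 7610 probes. A standard error over beads was taken as the deposited spread between beads divided by the square root of the bead number. This treats that spread as a standard deviation, an assumption that was not checked. Its median was 0.582% of the signal with Ha-RAS and 0.875% with Ki-RAS for the 169 probes. For the 247 it was 0.672% and 0.644%. Over the 7610 probes these medians were 0.620% and 0.752%.

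Replicates of a line lay close together beside these differences. The median size of the difference between the replicate arrays was 0.17 in Ha-RAS, 0.24 in Ki-RAS and 0.20 in control cells on the log2 scale for the 169 probes, and 0.20, 0.17 and 0.23 for the 247. Over all 7610 probes it was 0.16, 0.19 and 0.21. The smaller of a member's 2 differences from control was larger than its largest replicate difference for 143 of the 169 and 225 of the 247 probes. For the other 26 and 22 it was not. The smaller difference exceeded the largest replicate difference in 44.0% of the 7610 probes, whatever their directions, and the rule itself raises the count among members by asking for large differences in both lines. All Ha-RAS arrays lay above and all Ki-RAS arrays below both control arrays for 165 of the 169 probes, where 38.9% and 36.4% of the 7610 probes did so in each line alone. The reverse held for 246 of the 247 probes, where the shares were 36.6% and 40.1%. The rule raises these 2 counts too, and the share of all probes with either pattern in both lines was not counted. In the fit of limma across 10848 probes, which called 54.0% of them for Ha-RAS and 55.1% for Ki-RAS against control (adjusted p threshold 0.05), 135 of the 169 probes and 219 of the 247 passed in both comparisons and in the member direction. Among the 7610 probes, 25.8% passed as above and 24.3% as below control for Ha-RAS, and 27.2% as above and 25.3% as below it for Ki-RAS. These shares are for each comparison alone, and the share of all probes passing in both with opposite signs was not counted. The member rule used the same contrasts, so the member counts are no test of the members and no support for them.

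The members also leaned to one replicate in 2 of the groups. The Ha-RAS replicate B array, the one labelled with an EMT phenotype, was farther than replicate A in the direction of the Ha-RAS change for 103 of the 169 (60.9%) and 170 of the 247 members (68.8%). The label, the replicate and the array cannot be told apart here. Replicate A was the higher Ha-RAS array for 56.8% of all 7610 probes, so the directions have different backgrounds. Among probes that were not members, replicate B was farther for 46.0% of the 1494 at least 1.5-fold above control in Ha-RAS cells, the direction of the Ha-high set, and for 58.7% of the 1394 at least as far below it, the direction of the Ki-high set. In control cells replicate A lay nearer the Ha-RAS level than replicate B for 110 of the 169 (65.1%) and 150 of the 247 (60.7%), against 48.6% and 48.8% of those other probes. The Ki-RAS arrays showed no such lean, with replicate B farther for 48.5% and 49.4% of members (82 of 169 and 122 of 247), against 44.5% of 1492 other probes below and 51.5% of 1603 above control in Ki-RAS cells, although the first count was 57 without background subtraction. On 4 other scales for the same probes, the Ha-RAS counts were 101 to 111 of 169 and 152 to 167 of 247, and the control counts 110 to 114 and 145 to 149. The shares of other probes were not counted on those scales. This lean was looked for after the levels were seen, and the shares were not tested, since probes of an array are not independent.

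The suffix of a probe ID gives, by the manufacturer's convention, whether it targets a transcript without known isoforms (S), all isoforms (A) or 1 isoform (I). The 169 probes held 140 S, 18 A and 11 I probes (82.8%, 10.7% and 6.5%), and the 247 held 212, 29 and 6 (85.8%, 11.7% and 2.4%). The 7610 probes had 83.0%, 11.9% and 5.1%. A GI number that carries both an A and an I probe gives a second reading of one sequence record, and 12 members had such a partner, 4 in the Ha-high set and 8 in the Ki-high set. No partner was itself a member. It was detected on no array in 5 pairs, on 1 or 2 arrays in 2, on 3 to 5 arrays in 2, and on all 6 arrays in 3.

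The 3 fully detected pairs did not all give one pattern. For GI_38570151 the I probe, the member, differed from control by 0.74 in Ha-RAS and by -0.95 in Ki-RAS cells on the log2 scale, and the A probe by 0.47 and -1.32. Both probes thus had the same signs, and the A probe missed the threshold in Ha-RAS. For GI_22538439 the I probe, again the member, differed by 0.65 and -1.89, whereas the A probe differed by -0.52 and -2.77 and so was below control in both lines. The I probe's Ha-RAS difference fell just short of the threshold without background subtraction (0.58) and was 0.55 without control replicate A, so that it was no member there. The A probe's Ha-RAS difference was negative in every setting run, from -0.76 without Ha-RAS replicate A to -0.28 without Ha-RAS replicate B. Signals of that A probe were 1128.5 and 753.7 in Ha-RAS, 1079.9 and 1155.8 in control, and 184.3 and 225.9 in Ki-RAS cells, with the Ha-RAS and control signals overlapping. After scaling, its levels of 2.01 and 1.53 in Ha-RAS did not overlap those of 2.41 and 2.18 in control. For GI_16950626 the A probe, the member, differed by -0.71 with Ha-RAS and 1.41 with Ki-RAS, and the I probe by -0.13 and 2.08. The A probe's Ha-RAS difference was -0.38 without background subtraction, -0.54 with nec and quantile normalization, -0.53 at a floor of 64 and -0.52 without Ha-RAS replicate B, and under each of these it was no member. The I probe's Ha-RAS difference was 0.17 without Ha-RAS replicate B, above control, and it was negative in every other setting run. The probes of a pair come from the same RNA, so they are no replicate of each other, and over the 49 GI numbers with both probes detected on all arrays their Ha-RAS minus control differences were a median of 0.39 apart and at most 1.94.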

How the data were processed

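RNA of Caco-2 cells was analysed on 6 arrays. The authors deposited mean bead intensity per probe, the spread between beads (also an intensity), the bead number and a detection score, made with BeadStudio 1.5.13 per the submitters' processing notes and without normalization per the series' design text. Whether background had been subtracted is not stated there. The 4 bacterial probes were left out. Levels and members were computed as the report states (Python 3.11.15). For the shares of all probes called, background was corrected with nec of limma 3.58.1 (R 4.3.3; offset 16), values were log2 transformed and quantile normalized, and lmFit and eBayes were run over all 6 arrays on 10848 probes detected on both arrays of at least 1 group, with Benjamini-Hochberg adjustment. The limma fit and the difference threshold were also run on simulated normal values with equal and opposite changes. That simulation had no background subtraction and no floor, so it does not show how dim probes behave. Members, gene lists and tests were chosen with earlier results of these data known. The rule for named probes was written for gene symbols. Here it names, by ID, the 2 largest per direction and the A and I pairs detected on all arrays. Those pairs, the counts at other thresholds and the replicate counts on other scales were chosen after seeing the data. Members are counted as probes, and several can belong to 1 gene. p-values would measure only the spread between these arrays.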

Additional observations from a re-analysis of the deposited data

Results flagged for a closer look

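In 165 of the 169 probes every Ha-RAS array lay above and every Ki-RAS array below both control arrays. In 246 of the 247 probes the reverse held. Over all 7610 probes, each line alone, the shares were 38.9% and 36.4% for the first pattern. For the reverse they were 36.6% and 40.1%. The members were chosen for such a pattern, and the difference between the lines was not tested. The share of all probes with either pattern in both lines was not counted. Groups of 2 arrays are too small to look for outlying samples.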

How the results depend on the processing

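The Ha-high set had 169 members, and it had 50 without background subtraction, 101 with nec and quantile normalization, 105 with a floor of 64 and 18 with a difference of 1 required in each line. The Ki-high set had 247 members, and 123 without background subtraction and 80 with a difference of 1. It had 175 with nec and quantile normalization and 191 with a floor of 64. A floor of 4 left both counts as they were, quantile normalization gave 157 and 219, and cyclic loess 158 and 245. With 1 array left out the counts ran from 152 to 198 and from 225 to 262. Without control replicate B 114 of the 169 and 198 of the 247 members were still members, the fewest of any array left out. All members kept the sign of both differences without background subtraction. That is no check, since a similar background on every array shrinks differences and can hardly reverse them. At a floor of 64, dim values are set equal before each array's median is taken off, so their levels still differ between arrays. There 128 of the 169 and all 247 members of the Ki-high set kept both signs. The counts of probes called by limma, 5854 for Ha-RAS and 5982 for Ki-RAS against control, stayed within 1.5 times under each alternative, and with the replicate letter as a replicate block they were 5681 and 5791. Deviations of same-lettered arrays from their group means correlated at -0.17 between Ha-RAS and Ki-RAS and at -0.18 between Ha-RAS and control. Between Ki-RAS and control cells the correlation was 0.10. With 2 arrays in each group these values cannot decide whether the letters pair the samples. Signal close to background limits the folds of members in the line where they were low.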

Other observations

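The same differences were counted among the 3238 probes that some arrays missed but that both arrays of 1 or more lines detected. Of these, 100 were at least 1.5-fold above control with Ha-RAS and as far below it with Ki-RAS, and 57 of the 100 were detected on neither Ki-RAS array. The reverse pattern was found for 89, of which 67 were detected on neither Ha-RAS array. Values under the floor of 16 units are set to it, and many of these probes are at or near background in the low line, so the counts of the 2 directions are not compared.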
